A study of Homo sapiens with 18 samples.

Results

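The 38 genes described here encode the machinery of homologous recombination and of the Fanconi anaemia pathway, from the first trimming of a broken DNA end to the separation of the repaired chromatids. They were picked by gene symbol from textbook knowledge of the pathway by a rule that names no measured value, although earlier results of these data were known when the set was chosen, and all 38 were found among the 20967 genes with a symbol in the 22RV1 tables and the 15092 in the PC3 table. The study sequenced RNA of 22RV1 cells, a line of castration-resistant prostate cancer (CRPC), in 4 groups of 3 libraries (replicates A, B and C). The CANA + RT group received 10 µM canagliflozin, an inhibitor of the glucose transporter SGLT2, and 5 Gy of radiation, the RT group 5 Gy, the CANA group 10 µM canagliflozin and the control group DMSO. PC3 cells, a line of metastatic CRPC, were sequenced as 3 CANA libraries with 10 µM canagliflozin and 3 DMSO control libraries, and no PC3 library was irradiated. All libraries were taken after 24 h from cells grown in RPMI medium with 10% FBS. Each line stands for 1 tumour, the labels do not say whether irradiated cells also received DMSO, and the study speaks of independent experiments in general and of different replicates for the sequencing, without saying whether each library came from a culture of its own. The p-values measure the spread between these samples, which may be technical.

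Homologous recombination mends a broken chromosome by copying the intact sister. MRE11, RAD50, NBN, RBBP8 and EXO1 trim the broken ends to single strands, BRCA1, BARD1, PALB2 and BRCA2 prepare these strands for the exchange with the sister, RAD51C, RAD51D, XRCC2, XRCC3 and the RAD54 family help the exchange along, and BLM with its partners or a set of nucleases take the joined molecules apart. The Fanconi pathway acts where a crosslink ties both strands together: a core complex with the enzyme UBE2T attaches ubiquitin to FANCI and FANCD2, which opens the way to incision and repair. The pathway works mainly while a sister chromatid is at hand, and loss of BRCA2 or of its partners in prostate tumours is known for making them sensitive to PARP inhibitors.

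The 22RV1 values are rlog values, log2 read counts whose differences are drawn towards 0, most for genes with few reads, and the PC3 values are reads divided by a size factor for each library. A gene was called higher or lower at an adjusted p under 0.05 in limma (Benjamini-Hochberg over all genes tested, 14563 in 22RV1 and 13448 in PC3), and all 38 repair genes passed the filter on low values in both lines. In the authors' mean over the 12 libraries of 22RV1 the repair genes held 161 (FANCB) to 3968 (FANCI) reads, with a median of 851. PC3 libraries held 15.8 to 28.3 M reads. In 22RV1 the first principal component took 83.4% of the variance and separated the 6 irradiated libraries (12.4 to 14.5) from the 6 others (-14.6 to -13.0). In PC3 1 library, CANA replicate B, lay at 50.5 on the first component against -17.3 to -1.58 for the other 5. The limma calls and the differences of the repair genes named in PC3 are given with and without it. For genes outside the 38 the differences are given without it only. Of the markers of other cell types in 22RV1, the fibroblast genes DCN and PDGFRB had rlog values of at most 3.04 and the blood gene PTPRC at most 0.929. Higher were COL1A1 (8.14 to 8.41), LUM (6.82 to 7.58), CD68 (6.23 to 6.58), COL3A1 (5.28 to 5.86) and COL1A2 (3.39 to 3.74). In PC3 COL1A1 reached 582 to 1391 normalized reads, CD68 1035 to 1349 and LUM 38.8 to 68.1. COL1A2, PDGFRB, DCN and PTPRC had at most 22 there.

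The repair genes differed widely among themselves in level. Reads per kilobase of transcript, from the authors' mean over the 12 22RV1 libraries, spanned 25.3 for RAD51D, which acts in strand exchange, to 3862 for UBE2T, the ubiquitin enzyme of the Fanconi pathway. FANCI (838), RAD51AP1 (730), which stimulates strand joining, and the end-trimming cofactor RBBP8 (583) followed UBE2T, and SLX4 (48.3) and BRCA2 (49.3) stood just above RAD51D. The median of the repair genes was 214 reads per kilobase, beside 64.4 over 19489 genes. In PC3 it was 158 in CANA cells and 161 in control cells, beside 145 and 146 over 14400 genes. The sets of all genes include genes below the filter on low values. In PC3 UBE2T was again at the top with a mean of 1264 reads per kilobase in CANA cells (1000.1 to 1718 by library, the highest in CANA replicate B) and 883 in control cells, followed by NBN, a subunit of the end-trimming nuclease, with 791 in CANA cells and 741 in control cells. RAD51D was again at the bottom with 14.1 in CANA cells and 15.6 in control cells. These ranks depend on the length of the canonical transcript, 9966 bases for RAD51D and 878 for UBE2T. By mean reads not divided by length the lowest were FANCB in 22RV1 (161) and FANCF in PC3 (143). The scales of the lines differ, and their levels were not tested against each other.

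Most of the pathway was lower in irradiated 22RV1 cells. In RT cells against control cells 31 of the 38 repair genes were lower, 0 were higher (1 at an unadjusted p under 0.05, limma) and 7 were not called. Over all genes 29.4% were lower and 28.4% higher. The median log2 difference of the repair genes was -0.29, against -0.0023 over all genes, and the members ran from -0.69 for EXO1 to 0.095 for PALB2. In 32 members all 3 RT libraries lay below all 3 control libraries, which held for 31% of all genes, and in 2 members (FANCF and PALB2) above them, as for 30% of all genes. In a bulk culture fewer cells that express a gene and less of its RNA in each cell cannot be told apart. Of the 31 lower members 29 were also lower in every fit that left out 1 library and under every other setting tried, the exceptions being FANCB and FANCG.

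**Figure D1:**
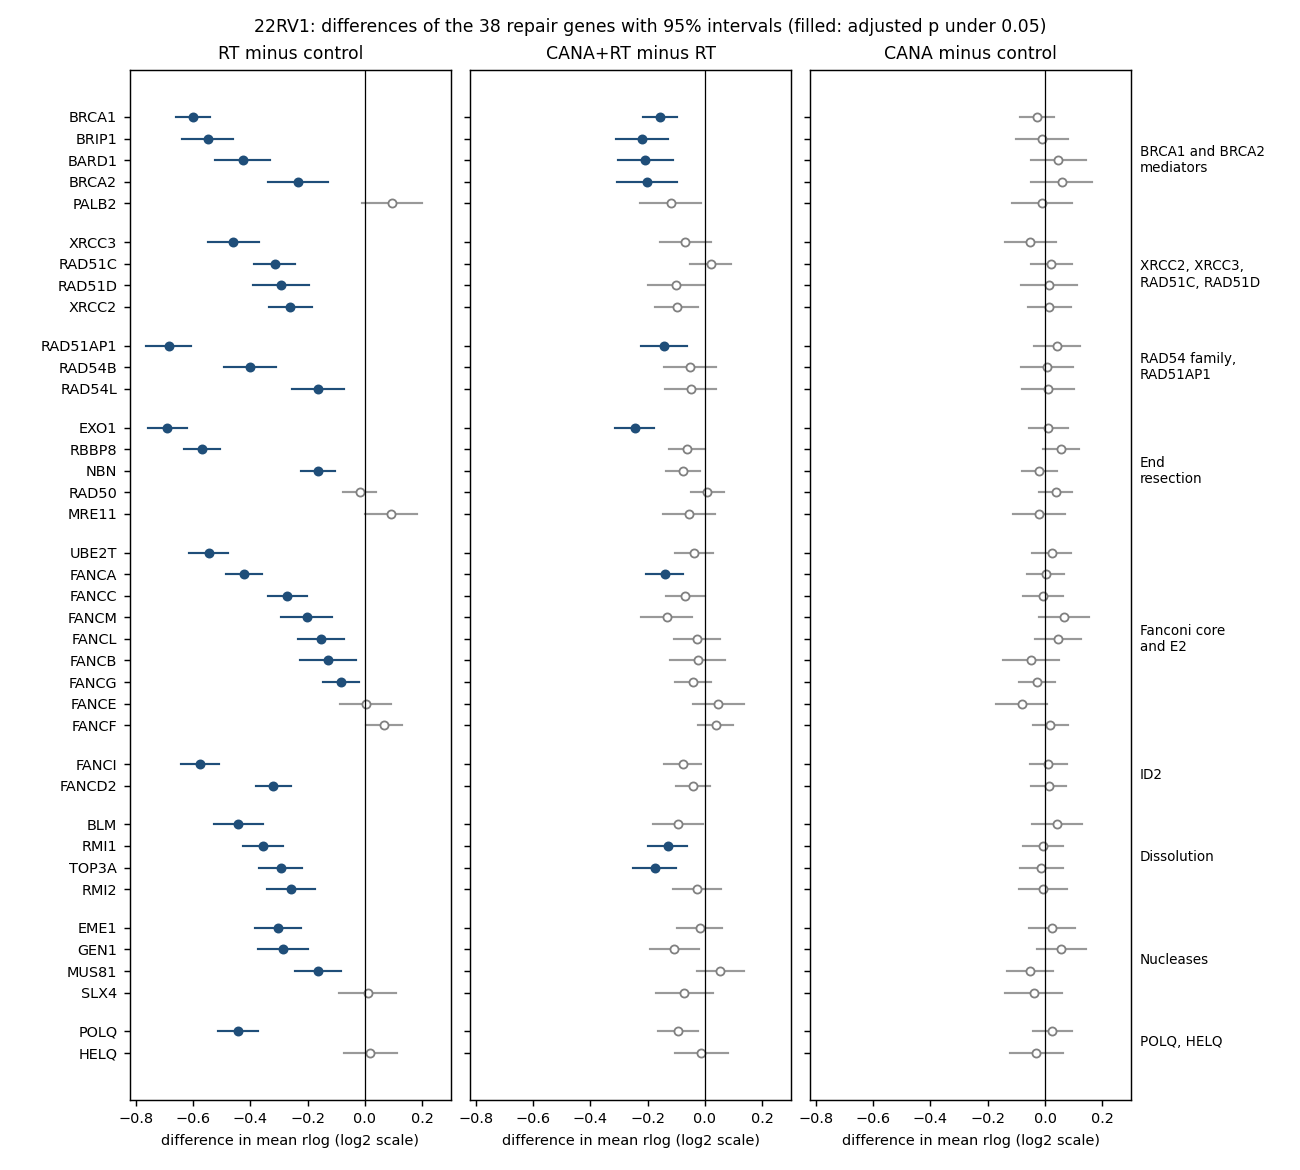
Differences in mean rlog (log2 scale, x axes) of the 38 repair genes in 22RV1 cells, grouped by role, for RT minus control, CANA + RT minus RT and CANA minus control, with 95% intervals from limma. Filled points are genes at an adjusted p under 0.05, 31 in the first panel, 9 in the second and 0 in the third.

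The strand exchange mediators around BRCA1 and BRCA2 were lower with radiation, except PALB2. BRCA1 (chr17:43044295-43170245, minus strand, GRCh38) joins the trimming of DNA ends to the strand exchange that follows. Its rlog values were 11.06, 11.08 and 10.98 in CANA + RT replicates A, B and C, 11.22, 11.21 and 11.17 in RT, 11.76, 11.75 and 11.80 in CANA and 11.80, 11.79 and 11.80 in control. Neither irradiated group overlapped the non-irradiated ones. The RT difference was -0.60 (SE 0.029, adjusted p = 2.2e-15), 34.1% lower. Its helicase partner BRIP1 differed by -0.55, its ubiquitin ligase partner BARD1 by -0.43 and the mediator BRCA2 by -0.23. PALB2, which links BRCA1 to BRCA2, measured 8.45, 8.36 and 8.35 in CANA + RT, 8.49, 8.54 and 8.49 in RT, 8.27, 8.49 and 8.44 in CANA and 8.44, 8.32 and 8.47 in control. All 3 RT values of PALB2 lay above the control values, but its difference of 0.095 did not pass the test (95% interval -0.011 to 0.20, adjusted p = 0.116).

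All 4 genes of the RAD51C, RAD51D, XRCC2 and XRCC3 group and all 3 genes of the RAD54 group were lower in RT cells. XRCC3 (chr14:103697609-103715504, minus strand) fell most among these 4, whose proteins form small complexes that help strand exchange. It measured 9.04, 8.95 and 8.96 in CANA + RT, 9.16, 9.05 and 8.95 in RT, 9.50, 9.44 and 9.44 in CANA and 9.51, 9.54 and 9.48 in control. RT lay below control in every library, with a difference of -0.46 (SE 0.044, adjusted p = 1.27e-09), and RAD51C (-0.32), RAD51D (-0.29) and XRCC2 (-0.26) followed. RAD51AP1 (chr12:4538798-4560047, plus strand) had values of 10.04, 10.00 and 10.01 in CANA + RT, 10.19, 10.17 and 10.11 in RT, 10.84, 10.88 and 10.94 in CANA and 10.93, 10.73 and 10.87 in control. The irradiated and non-irradiated libraries were far apart, and the RT difference was -0.69 (SE 0.039, adjusted p = 5.5e-14), 37.8% lower. The motor proteins of the group, which help the search for the matching strand, differed by -0.40 (RAD54B) and -0.16 (RAD54L).

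Among the genes of end trimming the response was uneven. EXO1 (chr1:241847967-241895148, plus strand), the exonuclease of long-range resection, measured 9.46, 9.45 and 9.38 in CANA + RT, 9.68, 9.67 and 9.68 in RT, 10.33, 10.40 and 10.40 in CANA and 10.34, 10.36 and 10.40 in control. Every irradiated library was below every non-irradiated one, and CANA + RT was in turn below RT. The RT difference of -0.69 (SE 0.033, adjusted p = 1.82e-15, 38% lower) was the largest of the 38. RBBP8, the cofactor known as CtIP that starts resection, differed by -0.57 and NBN by -0.16. The other subunits of the same nuclease complex did not pass the test: MRE11, its nuclease, differed by 0.090 (95% interval -0.00053 to 0.18) and RAD50, its ATPase, by -0.018 (95% interval -0.076 to 0.039).

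The Fanconi genes divided in the same manner, with the ubiquitin enzyme and its substrates lower and parts of the core complex near control. UBE2T (chr1:202331544-202341984, minus strand) measured 11.32, 11.33 and 11.42 in CANA + RT, 11.38, 11.39 and 11.42 in RT, 11.93, 12.00 and 11.98 in CANA and 11.98, 11.87 and 11.98 in control. The 2 irradiated groups overlapped each other and lay below both others, and the RT difference was -0.55 (SE 0.033, adjusted p = 1.62e-13). FANCI (chr15:89243945-89317261, plus strand), one of the substrates, measured 11.62, 11.49 and 11.50 in CANA + RT, 11.62, 11.63 and 11.59 in RT, 12.21, 12.16 and 12.23 in CANA and 12.20, 12.15 and 12.21 in control. Its irradiated groups also overlapped each other below the rest. It was 32.9% lower in RT cells (difference -0.58, SE 0.032, adjusted p = 3.21e-14), and its partner FANCD2 differed by -0.32. In the core complex FANCA (-0.42), FANCC (-0.27), the translocase FANCM (-0.20), the ubiquitin ligase FANCL (-0.15), FANCB (-0.13) and FANCG (-0.082) were lower, and FANCE (0.0029) and FANCF (0.066) were not called. The 183 bases that FANCG shares with another coding gene of its strand, 423 in RAD51D and 7525 in RAD50, where a readthrough model covers the gene, are uncertain in the counting.

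Of the genes that resolve joined molecules, all 4 of the dissolution complex and 3 of 4 nucleases were lower in RT cells. BLM (chr15:90717346-90816166, plus strand), the helicase that unwinds joined chromatids, measured 9.16, 9.22 and 9.09 in CANA + RT, 9.28, 9.26 and 9.21 in RT, 9.70, 9.74 and 9.76 in CANA and 9.75, 9.59 and 9.73 in control. With no overlap between RT and control, the difference was -0.44 (SE 0.042, adjusted p = 1.17e-09), and its partners RMI1 (-0.35), TOP3A (-0.29) and RMI2 (-0.26) went the same way. EME1 (chr17:50373220-50381483, plus strand), the partner subunit of the MUS81 nuclease, had 8.84, 8.78 and 8.80 in CANA + RT, 8.81, 8.80 and 8.86 in RT, 9.19, 9.16 and 9.10 in CANA and 9.09, 9.17 and 9.14 in control. The irradiated groups overlapped each other below both non-irradiated groups, and the RT difference was -0.30 (SE 0.039, adjusted p = 2.08e-07). The nuclease genes GEN1 (-0.29) and MUS81 (-0.16) were lower, and the scaffold SLX4 had a difference of 0.0099 that did not pass the test (95% interval -0.089 to 0.11).

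Outside the main route of strand exchange, POLQ and HELQ parted. POLQ (chr3:121431431-121545988, minus strand) encodes DNA polymerase theta, which joins ends through short shared stretches when recombination fails. Its values were 9.65, 9.66 and 9.65 in CANA + RT, 9.79, 9.73 and 9.72 in RT, 10.21, 10.18 and 10.26 in CANA and 10.17, 10.16 and 10.25 in control. It was lower in every irradiated library, with an RT difference of -0.44 (SE 0.034, adjusted p = 1.86e-11). The helicase gene HELQ differed by 0.018 (95% interval -0.074 to 0.11) and was not called.

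**Figure D2:**
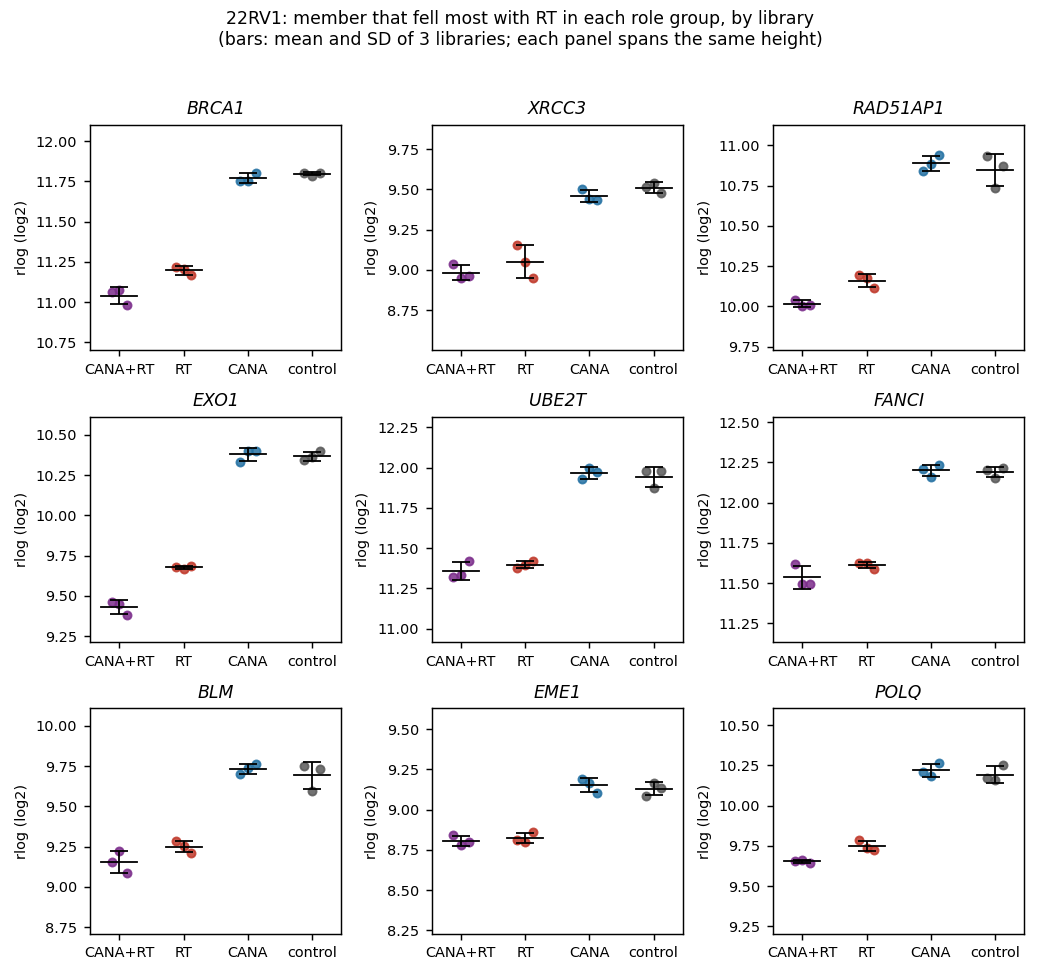
Values of rlog (log2 scale, y axes) by library in 22RV1 for the 9 genes with the largest fall in RT cells, 1 for each role, with the mean and SD of 3 libraries in the CANA + RT, RT, CANA and control groups. In all 9 panels the 6 irradiated libraries lie below the 6 others, and for EXO1, BRCA1, RAD51AP1 and POLQ the CANA + RT libraries also lie below the RT libraries.

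The fall of the repair genes stood beside a fall of genes that cycling cells use to copy DNA. Of 25 S phase genes 24 were lower in RT cells (median difference -0.50), among them RRM2 (-1.03), which makes deoxyribonucleotides, the fork protein gene CLSPN (-1.14) and the replication helicase gene MCM4 (-0.71). Of 20 genes of G2 and M phase 13 were lower and 1 higher, with MKI67 at -0.55, KIF11 at -0.44 and BUB1B at -0.36. All 21 p53 targets were higher (median difference 0.76), with BBC3 at 1.35, FDXR at 1.35, DDB2 at 1.17, the cycle inhibitor CDKN1A at 1.06 and MDM2 at 0.62. Most of the S phase and of the G2 and M phase genes fell with the repair genes, while the p53 targets rose. The part of these lists in the result was not tested. Among 46 tested genes of the pathway that are not among the 38, 27 were lower and 6 higher, a share of 58.7% lower against 81.6% of the 38. The 3 with the smallest p were the strand exchange cofactor PSMC3IP (-0.68), the recombination gene FIGNL1 (-0.57) and the helicase gene MCM8 (-0.60).

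**Figure D3:**
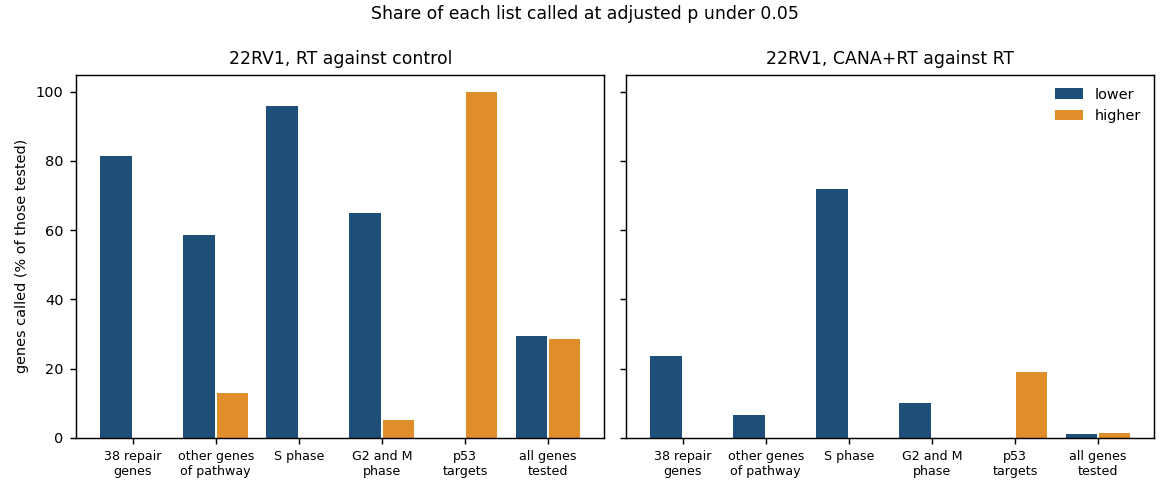
Percent of the tested genes of each list (y axis) called lower or higher at an adjusted p under 0.05 in 22RV1, for RT against control and CANA + RT against RT. The 38 repair genes are at 81.6% lower in the first panel and 23.7% in the second, beside 29.4% and 1.17% of all genes.

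The starts of these genes are shown because E2F factors, which drive S phase genes, are known to act through a short word in promoters, and many of the 38 moved together with S phase genes. Windows of 250 bases before to 50 bases from each RefSeq start (GRCh38.p14) were found for 34 of the 38 genes, in 44 windows. The words searched on both strands were TTTCCCGC, TTTCGCGC, TTTGCCGC and TTTGGCGC for E2F. They were found in 7 of the 34 genes, or 15.9% of their windows against 3.31% of all 35116 windows. Those windows belong to 27305 genes, not matched to the 38 in expression or in base composition, and the difference in share was not tested. Of the 27 genes with a window that were lower in RT cells 7 held such a word (25.9%), and of the 7 that were not called 0 did. Because 27 of the 34 genes were lower, most of any 7 of them would be lower too, and the difference was not tested. The word CCAAT was in 16 of the 34 genes (40.9% of their windows and 34.6% of all), 12 of the 27 that were lower in RT cells and 4 of the 7 that were not called, and the words TTTGAA and TTCGAA of the CHR element, known from genes of G2 and M phase, in 6 (15.9% of their windows and 16.4% of all). A match is a description of letters, and binding was not measured. The 30 bases around each E2F word are given in the direction of the gene, with the word, or its complement where it lies on the other strand, in capitals.
EXO1, chr1:241848197-241848226, plus strand: aaaggtcagccTTTCGCGCgctgtgtaggc
FANCA, chr16:89816801-89816830, minus strand: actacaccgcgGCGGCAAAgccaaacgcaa
RMI1, chr9:83980762-83980791, plus strand: ggcgcgagcgcGCGGCAAAtcgggcgggaa
FANCD2, chr3:10026424-10026453, plus strand: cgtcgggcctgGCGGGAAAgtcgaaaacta
XRCC2, chr7:152676102-152676131, minus strand: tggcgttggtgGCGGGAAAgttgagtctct
GEN1, chr2:17753859-17753888, plus strand: cagttgcggggTTTCGCGCcgccggagtct
FANCC, chr9:95317737-95317766, minus strand: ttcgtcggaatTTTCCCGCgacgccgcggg
FANCC, chr9:95317863-95317892, minus strand: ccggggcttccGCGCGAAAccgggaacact

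EXO1, FANCA and RMI1 stand first in this set because they were also lower when canagliflozin was added to radiation. Of the 9 genes lower in that comparison 3 held an E2F word and 5 a CCAAT word, and BARD1, BRCA2 and TOP3A held neither. BRCA1, BRIP1 and RAD51AP1 held no E2F word of these letters but a CCAAT word, of which 1 is shown for each, with the word or its complement in capitals.
BRCA1, chr17:43125522-43125551, minus strand: cagactgggtggCCAATccagagccccgag
BRIP1, chr17:61863539-61863568, minus strand: gctcgctgggctATTGGgcgctgggagtcg
RAD51AP1, chr12:4538808-4538837, plus strand: tggctggtgatgATTGGacgactggtaaca

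When canagliflozin was added to radiation a part of the pathway was lower still, led by EXO1 and by the mediators around BRCA1 and BRCA2. In CANA + RT cells against RT cells 9 of the 38 repair genes were lower and 0 higher (0 also at an unadjusted p under 0.05, limma), where 1.17% of all genes were lower and 1.4% higher. All 9 were also lower in RT cells against control, a comparison with the same RT libraries. There 31 of the 38 (81.6%) were lower, so most of any 9 members would be, and the overlap over all genes was not counted. The median difference was -0.070 over the 38 and -0.0023 over all genes. In 20 members the 3 CANA + RT libraries all lay below the 3 RT libraries, beside 12.6% of all genes, and in 2 members (RAD51C and FANCE) above them, beside 12.2%.

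Of the 5 mediators 4 were lower with the combination. BRIP1 (chr17:61679139-61863559, minus strand) measured 9.24, 9.15 and 9.12 in CANA + RT cells, 9.41, 9.42 and 9.34 in RT cells, 9.86, 9.90 and 10.02 in CANA cells and 9.91, 9.88 and 10.03 in control cells. The CANA + RT values were below all RT values, with a difference of -0.22 (SE 0.044, adjusted p = 0.00635), 14.2% lower. BARD1 measured 8.41, 8.53 and 8.36 in CANA + RT and 8.59, 8.71 and 8.64 in RT (-0.21, SE 0.046, adjusted p = 0.0142). BRCA2 measured 9.00, 8.84 and 8.81 in CANA + RT and 9.13, 9.10 and 9.03 in RT (-0.20, SE 0.051, adjusted p = 0.0318). The groups did not overlap in either gene. BRCA1, whose values stand above, differed by -0.16 (SE 0.029, adjusted p = 0.00368), and PALB2 by -0.12, which did not pass (adjusted p = 0.218) although its CANA + RT values were below its RT values.

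The other lower genes came from 4 further roles. EXO1 had the largest difference of the 38, -0.25 (SE 0.033, 95% interval -0.31 to -0.18, adjusted p = 2.03e-04), 15.7% lower. TOP3A (chr17:18271428-18315007, minus strand), the topoisomerase that works with BLM, measured 9.80, 9.87 and 9.87 in CANA + RT, 10.07, 10.04 and 9.96 in RT, 10.29, 10.29 and 10.33 in CANA and 10.37, 10.35 and 10.24 in control, and its CANA + RT libraries lay below all others. Its difference was -0.18 (SE 0.037, adjusted p = 0.00905), and that of its partner RMI1 -0.13 (adjusted p = 0.0353). FANCA (chr16:89726683-89816977, minus strand), the scaffold of the core complex, measured 9.85, 9.85 and 9.81 in CANA + RT, 9.99, 10.00 and 9.93 in RT, 10.42, 10.38 and 10.41 in CANA and 10.41, 10.42 and 10.37 in control. It was lower by a difference of -0.14 (SE 0.031, adjusted p = 0.0139), as was RAD51AP1 (-0.14, SE 0.039, adjusted p = 0.0447), and neither gene overlapped between CANA + RT and RT. The genes of the FANCI and FANCD2 complex, the group of RAD51C, RAD51D, XRCC2 and XRCC3, the nucleases and POLQ gave no call. UBE2T differed by -0.039 (95% interval -0.11 to 0.028) and RAD51C by 0.020 (95% interval -0.051 to 0.091).

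The number of calls in this comparison depended on single libraries. It was 4 without CANA + RT replicate A, 6 without B and 3 without C, and 4, 3 and 8 without RT replicates A, B and C. The calls over all genes fell as well, from 170 lower to 58, 86, 55, 59, 53 and 98 in the same order. EXO1 and BRCA1 were called in all 6 of these fits and under all 8 other settings, BRIP1 in 4 of the 6 fits, BARD1 and TOP3A in 3, BRCA2 and FANCA in 2, and RAD51AP1 and RMI1 in 1. Of the S phase genes 18 of 25 were lower with the combination (median difference -0.16), among them RRM2 (-0.25), MCM4 (-0.23) and UHRF1 (-0.32), which keeps DNA methylation through replication. Of the genes of G2 and M phase 2 of 20 were lower (MKI67 -0.15 and KIF11 -0.13, while NUSAP1, with -0.085, did not pass), and of the p53 targets 4 of 21 were higher, with GDF15 at 0.38, CDKN1A at 0.25 and BBC3 at 0.16, and MDM2 at -0.0017. The S phase and G2 and M phase genes called here fell with the repair genes, while the p53 targets called here rose. The part of these lists was not tested. Among the 46 other genes of the pathway 3 were lower: RECQL (-0.13), FIGNL1 (-0.11) and TONSL (-0.12), which handles stalled forks.

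Without radiation canagliflozin gave no call among the 38 genes in 22RV1 cells. In CANA cells against control cells limma called 0 repair genes higher and 0 lower (0 and 0 also at an unadjusted p under 0.05), where 0% of all genes were called in either direction and 241 genes were higher and 180 lower at an unadjusted p under 0.05. The study, with DESeq2 on read counts, reports significant genes in both directions for this comparison. The lack of limma calls is therefore no evidence that canagliflozin alone changed no gene. Differences ran from -0.082 for FANCE to 0.066 for FANCM, and in no member were the CANA and control libraries apart, beside 2.79% of all genes that were apart and higher and 3.56% apart and lower. EXO1 differed by 0.012 and BRCA1 by -0.028. By library, the 38 had a median difference from the control mean of -0.015 in CANA replicate A, -0.0077 in B and 0.040 in C.

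Whether canagliflozin acted differently in irradiated and in non-irradiated 22RV1 cells was tested as an interaction, the CANA + RT minus RT difference less the CANA minus control difference. It was negative in 33 of the 38 genes, with a median of -0.067 against -0.0012 over all genes. EXO1 alone passed the test, at -0.26 (SE 0.047, 95% interval -0.35 to -0.16, adjusted p = 0.0275), where 0.0481% of all genes had a negative call and 0.0549% a positive one. No member had a positive call in limma. At an unadjusted p under 0.05, 15 members were negative and 1 positive, beside 5.6% of all genes negative and 4.85% positive. BRCA2 (-0.26, adjusted p = 0.189), BARD1 (-0.26, adjusted p = 0.139), BRIP1 (-0.21, adjusted p = 0.225) and BRCA1 (-0.13, adjusted p = 0.254) had negative values that did not pass. The call of EXO1 was made in 5 of 12 fits that left out 1 library. It was lost without CANA + RT replicate B or C, CANA replicate B or C, control replicate A or RT replicate A or B. In these fits its adjusted p reached 0.132. Without control replicate C 4 members had a negative call, EXO1, BRCA2, BARD1 and BRIP1. In that fit 46 of all genes had a negative call and 70 a positive one.

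Set against control cells, most of these genes were lower with the combination. In CANA + RT cells against control cells 31 repair genes were lower and 1, FANCF, higher, where 29.2% of all genes were lower and 28.4% higher, and against CANA cells 29 were lower and 2 higher (FANCF and FANCE), where the shares were 28.8% and 28.2%. These comparisons share libraries with those above. EXO1 was 47.7% lower than in control cells (difference -0.94, SE 0.033), RAD51AP1 43.7% lower (-0.83, SE 0.039), BRIP1 41.3% lower (-0.77, SE 0.044) and BRCA1 lower by a difference of -0.76 (SE 0.029). GEN1 led the nucleases here, with 9.64, 9.66 and 9.64 in CANA + RT, 9.76, 9.80 and 9.71 in RT, 10.03, 10.09 and 10.18 in CANA and 9.95, 10.04 and 10.14 in control, and a difference from control of -0.39 (SE 0.042). Each CANA + RT library was below each RT library in GEN1, with a difference of -0.11 that did not pass (adjusted p = 0.176). The 38 genes had a median difference from the control mean of -0.35 in CANA + RT replicates A and B and -0.40 in C, against -0.26, -0.29 and -0.30 in the RT libraries in the same order.

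FANCF and FANCE were the only members called higher in these 2 comparisons. MRE11 and HELQ also had positive differences, which did not pass the test (0.036 and 0.0051 from control, 0.057 and 0.036 from CANA). FANCF, an adaptor of the core complex, measured 10.28, 10.29 and 10.25 in CANA + RT, 10.26, 10.22 and 10.21 in RT, 10.21, 10.15 and 10.20 in CANA and 10.18, 10.14 and 10.19 in control. The CANA + RT values lay above all CANA and control values, with a difference from control of 0.10 (SE 0.030, adjusted p = 0.00516) and from CANA of 0.084 (SE 0.030, adjusted p = 0.0203). FANCE, which binds FANCD2 for the core complex, measured 7.93, 7.94 and 7.94 in CANA + RT, 7.90, 7.88 and 7.90 in RT, 7.77, 7.78 and 7.87 in CANA and 7.91, 7.86 and 7.90 in control. Its call against CANA (0.13, SE 0.043, adjusted p = 0.0119) was made where CANA replicates A and B had the lowest values of the 12 libraries, and against control it did not pass (0.049, adjusted p = 0.340).

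In PC3 cells no repair gene passed the test over all 6 libraries, and the smallest p belonged to RBBP8, which was higher in CANA cells. In CANA cells against control cells limma called 0 members higher and 0 lower, where 0% of all genes were called, and 3 members were higher and 2 lower at an unadjusted p under 0.05, beside 10.7% and 7.76% of all genes. On the recovered whole reads edgeR called 0 members and 0 genes in all, and again 3 members higher and 2 lower before adjustment, while DESeq2 called 1 member, RBBP8, higher (adjusted p = 0.00303) among 263 genes higher and 87 lower. In 7 members all CANA libraries lay above all control libraries and in 8 below them, beside 17.7% of all genes in each direction, and without CANA replicate B these were 11 and 10 members, beside 23.5% and 24.8% of all genes. Without that library limma called 6 members higher and 3 lower, where 10.4% of all genes were higher and 9.54% lower.

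RBBP8 (chr18:22798261-23026488, plus strand) had 1987, 2179 and 1929 normalized reads in replicates A, B and C of CANA and 1429, 1417 and 1598 in those of control. All CANA values were above all control values, and the difference on the log2(value + 1) scale was 0.46 over 6 libraries (SE 0.092, 95% interval 0.24 to 0.67, adjusted p = 0.236) and 0.40 without CANA replicate B (SE 0.060, adjusted p = 1.65e-04). RAD51AP1 had 773.5, 1039 and 783.1 normalized reads in CANA cells and 649.9, 639 and 714.6 in control cells, again with no overlap, and a difference of 0.36 (adjusted p = 0.249) or 0.22 without B (adjusted p = 0.0291). XRCC3 had 614.7, 568 and 619.6 normalized reads in CANA cells and 714.8, 730.2 and 694.7 in control cells. It was below control in each CANA library, by -0.25 over 6 libraries (adjusted p = 0.248) and -0.21 without B (adjusted p = 0.0311). TOP3A had 671.9, 494.1 and 645.2 normalized reads in CANA cells and 755.9, 804.5 and 742.6 in control cells, with differences of -0.36 (adjusted p = 0.249) and -0.22 (adjusted p = 0.0255). Both groups were apart in TOP3A, with CANA replicate B the lowest value.

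Among the genes that were called without CANA replicate B and not over 6 libraries, UBE2T had 878.1, 1508 and 942.1 normalized reads in CANA cells and 746.8, 803.5 and 776.4 in control cells. BRIP1 had 2480, 1781 and 2525 in CANA cells and 2015, 2100 and 2349 in control cells, and MRE11 had 1238, 1104 and 1289 in CANA cells and 1089, 1060 and 1143 in control cells. The value of BRIP1 in CANA replicate B was below all 3 control values, that of MRE11 lay among them, and that of UBE2T was far above the rest. Without B the differences were 0.23 for UBE2T (adjusted p = 0.0179), 0.22 for BRIP1 (adjusted p = 0.0163), 0.20 for MRE11 (adjusted p = 0.0207) and 0.15 for NBN (adjusted p = 0.0458), and SLX4 was lower by a difference of -0.27 (adjusted p = 0.0401). Over all 6 libraries none of these 5 passed, with 0.055 for BRIP1, 0.14 for MRE11 and 0.093 for NBN. The S phase, G2 and M phase and other pathway genes had 0 calls in limma in either direction over all 6 libraries. At an unadjusted p under 0.05, 5 S phase genes and 3 genes of G2 and M phase were lower and 0 higher, and of the other pathway genes 5 were higher and 3 lower. Without B 12 of 25 S phase genes were lower and 1 higher, with UHRF1 at -0.34, MCM2 at -0.23 and MCM5 at -0.27, and 7 of 20 genes of G2 and M phase were lower, with CDC20 at -0.41, PLK1 at -0.34 and MKI67 at -0.30. Of the 45 other genes of the pathway tested, 4 were higher and 2 lower, led by SEM1 (0.41), a partner of BRCA2, RPA3 (0.40), a subunit of the protein that coats single strands, and TONSL (-0.23).

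CANA replicate B set the range of the PC3 differences. In that library 16 of the 38 members differed from the control mean by more than 0.3 on the log2 scale, against 1 in replicate A and 3 in replicate C, and 57.5%, 13.8% and 18.3% of all genes did in B, A and C. Its lowest members were SLX4 (-1.57), BRCA2 (-1.11) and POLQ (-0.90), and its highest UBE2T (0.96) and RAD51AP1 (0.64). Transcript length moved with these values: the median difference in replicate B was 0.14 for the 10 members with transcripts under 3000 bases and -0.31 for the 11 with 6000 bases or more, against -0.033 and 0.032 in replicate A and -0.0033 and 0.0090 in replicate C. The part of length in the result was not tested. BRCA2 (11954 bases of transcript) differed by -0.35 over 6 libraries and 0.035 without replicate B, POLQ (8757 bases) by -0.34 and -0.055, SLX4 (7315 bases) by -0.70 and -0.27, and UBE2T (878 bases, the shortest) by 0.47 and 0.23.

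**Figure D4:**
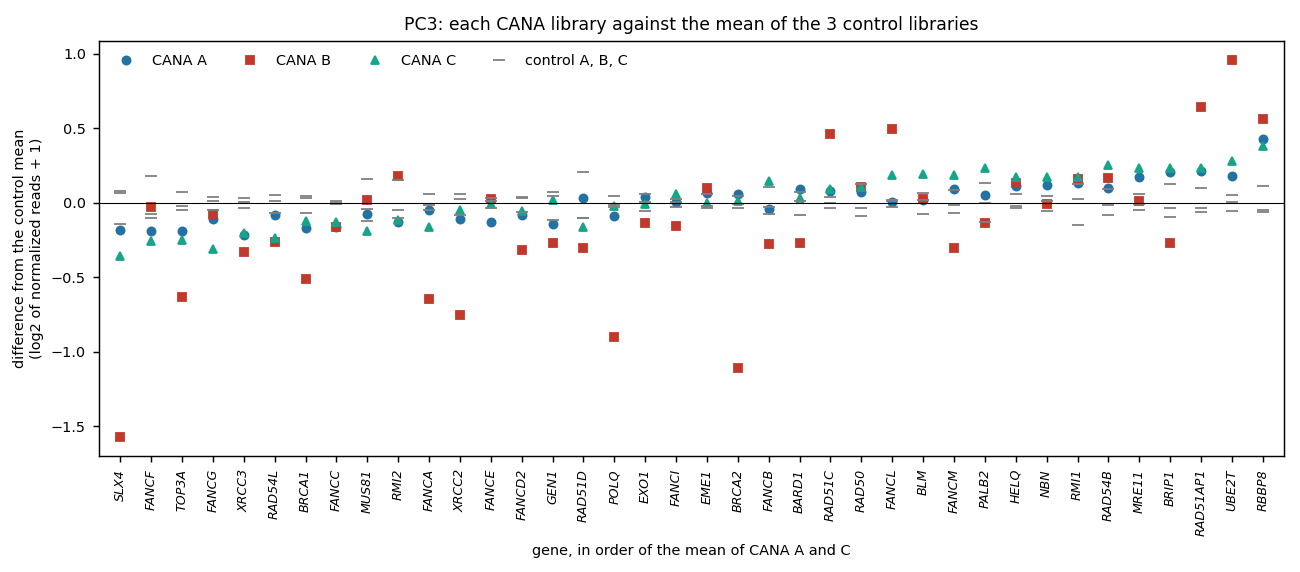
Difference of each PC3 library from the mean of the 3 control libraries (y axis, log2 of normalized reads + 1) for the 38 repair genes, ordered by the mean of CANA replicates A and C. CANA replicate B (squares) reaches from -1.57 for SLX4 to 0.96 for UBE2T, while RBBP8 is above control in all 3 CANA libraries.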

How the data were processed

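RNA was sequenced as single-end reads in 18 libraries. The authors trimmed reads with Trimmomatic and Cutadapt, aligned them to hg38 with HISAT2, counted reverse-strand exon reads with featureCounts and used DESeq2; versions are not given in the sources used here. For PC3 the authors deposited a signal, reads divided by each library's size factor, with 22.1, 15.8 and 19.3 M reads in replicates A, B and C of CANA and 18.4, 20.1 and 28.3 M in control; 99.9989% of 91170 values were whole reads within 0.01. For 22RV1 the authors deposited rlog values on a log2 scale, for which depth by library is unknown. In 6 libraries present in more than 1 table the rlog values differed by at most 5e-09 over 20962 genes. The authors' own fold changes, p-values, statistics and ranks were not used, nor were 51 columns without a sample name in 7 sheets of 1 gene. For canagliflozin in PC3, in 22RV1 and in irradiated 22RV1 cells the study reports more significant genes, from DESeq2, than limma called here. The reason was not tested. Genes without a symbol (101 in PC3, 0.0246% of values; 301 in 22RV1, 0.0606%) were left out.

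limma with a trend was fitted to log2(value + 1) in PC3 (mean of at least 10) and, for all 12 libraries at once, to rlog in 22RV1 (mean of at least 3), after a test on simulated data. The fits used limma 3.58.1 in R 4.3.3, and the count tests edgeR 4.0.16 or DESeq2 1.42.0. Alternatives were other pseudocounts and filters, edgeR and DESeq2 on recovered reads, quantile normalization, median centring, no trend, array weights, 2 groups only, each library left out and a replicate block. The genes and lists were chosen with earlier results of these data known. Values by library are given, in each 22RV1 comparison, for the called member of each role with the largest change in each direction and for members called against the majority, and in PC3 for the 4 members of smallest p with and without CANA replicate B; of a list the 3 of smallest p are named. BARD1, BRCA2 and PALB2 were added after their values were seen. Coordinates and the length of the canonical transcript are from GENCODE release 44 (GRCh38), the build of the files, and sequences from RefSeq (GRCh38.p14).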

Additional observations from a re-analysis of the deposited data

Results flagged for a closer look

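EXO1 differed between irradiated and non-irradiated 22RV1 cells in its response to canagliflozin, by the interaction test in limma (-0.26 on the rlog scale, adjusted p = 0.0275). Its CANA + RT minus RT difference was -0.25 and its CANA minus control difference 0.012.

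In 3 members every CANA library of PC3 lay above every control library, while every CANA + RT library of 22RV1 lay below every RT library. Among the 38, 7 were apart and higher in PC3, beside 17.7% of all genes. In 22RV1, 20 were apart and lower in CANA + RT against RT, beside 12.6% of all genes. The share of all genes with both was not counted, so the 3 members are not read as an excess. The values were 0.36 in PC3 and -0.14 in 22RV1 for RAD51AP1, 0.46 and -0.063 for RBBP8, and 0.15 and -0.13 for RMI1. Without CANA replicate B the PC3 values were 0.22, 0.40 and 0.15 in the same order, and those of RAD51AP1 and RBBP8 passed the test. The lines were measured on different scales, the 22RV1 cells were irradiated and the PC3 cells were not, and the difference between the lines was not tested. In PC3 these 3 differences did not pass the test over 6 libraries, and in 22RV1 that of RBBP8 did not. All groups held 3 libraries, too few for a test of single libraries that stand apart.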

How the results depend on the processing

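With each library left out in turn, members lower in RT against control numbered 29 to 31 and higher 0 to 1 (1 without control replicate C), in CANA + RT against RT 3 to 8 lower and 0 higher, in CANA against control 0 and 0 in 22RV1, in the interaction 0 to 4 negative and 0 positive, and in PC3 0 to 6 higher and 0 to 3 lower. BRIP1 in PC3 reversed, to -0.020 without CANA replicate A and -0.033 without CANA replicate C, and was 0.22 without CANA replicate B. For RT against control, quantile normalization and array weights gave 1 member higher each, beside 3987 and 4173 genes higher over all genes. For CANA + RT against RT, 3 members were lower with no filter. The interaction had 0 member calls with no filter, 0 with no trend and 2 negative ones with array weights. Over all genes array weights gave 37 positive and 40 negative calls. In PC3 DESeq2 called 1 member higher, and array weights 9 higher and 5 lower. Over all 13448 genes DESeq2 called 263 higher and 87 lower, and array weights 2275 higher and 2242 lower. Over all genes the calls of CANA + RT against RT were 204 higher and 170 lower, with no filter 51 and 54, and with 2 groups only 670 and 523. The causes were not tested.

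The replicate letters are not stated to mark a shared culture or day. Correlations were taken between libraries of different groups after the group mean of each gene was taken off. Same-letter libraries correlated between 0.045 and 0.12 in PC3 (median 0.062) and between -0.14 and 0.43 in 22RV1 (median 0.022 of 18 pairs). Libraries of different letters correlated between -0.16 and 0.065 in PC3 (median -0.035) and between -0.37 and 0.43 in 22RV1 (median -0.022). Between RT and CANA + RT libraries the same-letter values were 0.10, 0.092 and 0.17, and the others ran from -0.13 to 0.037. With 3 libraries in a group such values are tied: a higher same-letter value comes with lower values for the other letters. The 2 sets of values are therefore no independent comparison. Whether the letters mark a shared batch was not tested, and they were not used as pairs. With a replicate block the members called were 0 higher and 0 lower in PC3, 0 and 31 in RT against control, 0 and 10 in CANA + RT against RT, 0 and 0 in CANA against control and 0 and 1 in the interaction.

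Limits are 3 libraries in each group, rlog values that draw differences of low genes towards 0, a single time of 24 h and a single dose of each treatment. The RNA levels say nothing of protein or of repair activity.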
